A study of Homo sapiens with 9 samples.

Results

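The genes described here are the zinc finger genes of human chromosome 19, taken as every gene named ZNF followed by a number that the deposited expression tables place on that chromosome. They come to 266 gene identifiers, out of 57751 listed. A name may end in 1 letter, and 11 of the 266 end in P, the form used for pseudogenes. RNA was measured in A549 cells, a human line of epithelial type derived from an adenocarcinoma of the lung, in 9 libraries that fall into 3 groups of 3. One group received MS023, which inhibits the type I protein arginine methyltransferases that place asymmetric dimethylarginine. Another received GSK591, which inhibits PRMT5, the main source of symmetric dimethylarginine, and the control group received the solvent DMSO. Both inhibitors were used at 1 µM and all cells were harvested at day 7. Treated plates were started with 0.4 and control plates with 0.2 times 1e5 cells, so drug and seeding cannot be told apart in a comparison with DMSO. The labels describe RNA taken in triplicate from each condition of 1 line and do not name separate cultures, so p-values measure only the spread between these libraries.

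Proteins of this family carry rows of C2H2 zinc fingers, each a short loop folded around a zinc ion by a pair of cysteines and a pair of histidines, and neighbouring fingers together read a stretch of DNA. Many also carry a KRAB box, which recruits the co-repressor TRIM28 (KAP1) and through it the histone methyltransferase SETDB1 and HP1 proteins. The genes arose by repeated duplication, lie in dense groups along chromosome 19, and are best known for silencing transposable elements and for the heterochromatin marks that cover some of their own 3′ ends. Of the 266 genes, 248 had a coding sequence in the GENCODE v29 annotation, with a median of 12 recognisable fingers and at most 39. A search for a fixed KRAB letter pattern matched 179 and missed 69, among them genes whose KRAB box is spelled differently, so the number missed is an upper limit on genes without one.

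The repeat that defines the family is shown by its coding sequence, with the codons of the cysteines and histidines in capitals, read 5′ to 3′ from GENCODE v29. Within ZNF91 fingers 2 and 3 shared 70 of 84 bases, whereas finger 1 of ZNF558 shared 53 of 84 with finger 2 of ZNF91.
ZNF91 finger 2: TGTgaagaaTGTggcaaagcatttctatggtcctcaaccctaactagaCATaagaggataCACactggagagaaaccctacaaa
ZNF91 finger 3: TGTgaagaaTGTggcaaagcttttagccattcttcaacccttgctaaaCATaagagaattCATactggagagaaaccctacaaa
ZNF558 finger 1: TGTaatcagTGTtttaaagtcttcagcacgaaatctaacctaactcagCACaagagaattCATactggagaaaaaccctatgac

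Promoters of 300 bases, from 250 before to 50 after the annotated start, were found in RefSeq (GRCh38.p14) for 214 of the genes. The ETS core, the letters CCGGAAG on either strand, stood in 45.3% of them and in 10.7% of all 27305 promoters of that length. Among genes with enough reads to be tested it stood in 46.7% of 165 member promoters, in 35.8% of 193 promoters of ZNF genes on other chromosomes, and in 17.3% of 11074 promoters of all genes tested. A TATA box, TATAAA, was present in 1.87% of member promoters and 11.95% of all promoters, and a GC box, GGGCGG, in 67.8% and 44.6%. These 2 were not compared with promoters of tested genes alone, which differ in content. The median number of CG letter pairs was 14 in all promoters, 25 in those of all genes tested and 22 in those of tested members. The promoters below belong to ZNF814 (chr19:57888988-57889287, minus strand) and ZNF91 (chr19:23395422-23395721, minus strand), which had the largest increases with GSK591 under the naming rule, to ZNF558 (chr19:8832255-8832554, minus strand), lower with both inhibitors, and to ZNF101 (chr19:19668589-19668888, plus strand), lower with GSK591. Capitals mark the ETS core, present at 1 place in ZNF814 and ZNF91, at 2 in ZNF558 and at none in ZNF101. ZNF101 was chosen because it lacks the core. The promoter of ZNF846, which had the largest decrease with GSK591 under the naming rule, holds the core at 1 place and is not printed. A match describes the letters and shows no binding.
ZNF814 promoter: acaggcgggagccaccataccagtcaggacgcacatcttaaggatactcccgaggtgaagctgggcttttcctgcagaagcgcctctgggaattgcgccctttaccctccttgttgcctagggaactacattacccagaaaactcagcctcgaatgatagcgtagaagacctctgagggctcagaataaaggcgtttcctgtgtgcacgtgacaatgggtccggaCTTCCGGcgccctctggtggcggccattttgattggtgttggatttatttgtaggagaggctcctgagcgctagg
ZNF91 promoter: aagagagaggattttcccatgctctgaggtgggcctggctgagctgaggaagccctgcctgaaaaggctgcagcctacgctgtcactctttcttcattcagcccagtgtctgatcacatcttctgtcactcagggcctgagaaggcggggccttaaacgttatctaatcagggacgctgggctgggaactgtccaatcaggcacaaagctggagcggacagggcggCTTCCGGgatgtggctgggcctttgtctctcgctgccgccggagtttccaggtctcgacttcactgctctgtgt
ZNF558 promoter: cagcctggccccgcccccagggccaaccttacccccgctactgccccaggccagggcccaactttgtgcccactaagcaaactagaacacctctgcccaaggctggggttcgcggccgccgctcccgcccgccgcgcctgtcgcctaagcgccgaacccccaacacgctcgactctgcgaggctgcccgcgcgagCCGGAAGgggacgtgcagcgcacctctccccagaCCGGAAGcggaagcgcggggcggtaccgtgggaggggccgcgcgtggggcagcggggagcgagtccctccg
ZNF101 promoter: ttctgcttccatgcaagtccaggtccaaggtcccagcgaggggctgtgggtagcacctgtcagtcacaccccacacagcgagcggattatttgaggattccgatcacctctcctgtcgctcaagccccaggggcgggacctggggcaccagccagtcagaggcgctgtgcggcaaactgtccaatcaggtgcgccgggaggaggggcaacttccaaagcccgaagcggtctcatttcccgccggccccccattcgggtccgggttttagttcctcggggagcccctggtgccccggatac

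Counts were available for 250 of the 266 identifiers, and 188 had enough reads to be tested among 18292 genes. Of the 62 counted but untested, 20 had no read in any library and the highest single count among the rest was 14. ZNF93, known for repressing LINE-1 elements, was among them, with 1 read in the GSK591 libraries together and none in the MS023 or DMSO libraries. The tested genes were mostly low: their median level was 8.65 CPM (reads scaled to library depth with TMM factors), and 18 lay under 1 CPM. Because a gene expressed in 1 group alone can pass this filter, the counts below describe the tested genes and not the family as a whole.

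Compared per length, in the deposited FPKM, ZNF146 was the highest member, with 84.3 ± 3.17 FPKM in MS023 cells, 62.7 ± 1.97 in GSK591 cells and 83.1 ± 3.97 in DMSO cells (SD, n = 3). ZNF146 encodes a protein made almost wholly of fingers. ZNF780A followed with a mean of 20.5 FPKM over the 9 libraries and ZNF580 with 20.1 FPKM. The order of these 2 depended on the group: ZNF780A was at 21.5 ± 2.89 FPKM in MS023 cells, 13.1 ± 1.03 in GSK591 cells and 26.8 ± 2.58 in DMSO cells, and ZNF580 at 20.6 ± 0.737, 18.995 ± 0.731 and 20.7 ± 1.30. In counts ZNF780A differed less, at 64.6 ± 1.02 CPM in MS023 cells, 58.3 ± 2.29 in GSK591 cells and 66.5 ± 3.52 in DMSO cells, a log2 change of -0.19 ± 0.04 with GSK591, against -0.98 in log2(FPKM + 1).

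Library totals ran from 31398075 to 51244525 counts, and the tested members together held 0.241% to 0.287% of them. Their summed level was 2782 to 2801 CPM in MS023 libraries, 2655 to 2767 CPM in GSK591 libraries and 2486 to 2588 CPM in DMSO libraries, so neither treated group overlapped the controls. The 6 epithelial markers summed to 5133 to 5331 CPM with MS023, 7687 to 7952 CPM with GSK591 and 6402 to 6528 CPM with DMSO. KRT8, KRT18 and KRT7 made up most of this sum. KRT8, KRT18, KRT19 and CDH1 were higher in every GSK591 library than in any DMSO library. KRT7 was not, at 1452 to 1522 CPM with GSK591 and 1515 to 1541 CPM with DMSO. EPCAM ran opposite, at 19.6 to 22.5 with MS023, 6.21 to 6.67 with GSK591 and 12.4 to 15.3 CPM with DMSO. Fibroblast and endothelial markers summed to 24.9 to 27.8, 8.70 to 10.3 and 11.99 to 13.6 CPM, in the same order of groups. The leukocyte marker CD14 lay at 5.92 to 7.10 CPM with MS023, 6.98 to 7.83 CPM with GSK591 and 7.74 to 8.97 CPM with DMSO. PTPRC and CD3E, which also mark leukocytes, lay at 0.0436 CPM or less in every library, and COL1A1 made up most of the fibroblast and endothelial sum. Mitochondrial rRNA reached 932.5 CPM in GSK591 replicate 3 and at most 20.7 CPM in DMSO libraries. The part of these differences in the results was not tested. In bulk RNA, fewer cells expressing a gene and less RNA per cell cannot be told apart.

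With GSK591, 86 of the 188 tested members rose and 32 fell against DMSO (edgeR quasi-likelihood test, Benjamini-Hochberg adjusted p under 0.05). That is 118 called, a share of 62.8% beside 62.6% of all genes tested, so the number of changed members was at the background. The direction was not: 45.7% of members rose, beside 30.1% of all genes, and 17.0% fell, beside 32.4%. The members' median log2 change was 0.17, and that of all genes 0.01. ZNF genes on other chromosomes, 240 tested, divided into 72 higher and 66 lower with a median of -0.01. The other 919 genes of chromosome 19 divided into 276 higher and 303 lower, also with a median of -0.01. Without GSK591 replicate 3 and DMSO replicate 1, a choice made after seeing the data, 76 members were higher and 30 lower. In FPKM the balance was smaller, with 41 members higher and 26 lower of 158 that passed a filter there, and a median of 0.05 beside -0.10 for all genes.

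With MS023, 92 members rose and 13 fell against DMSO (edgeR, adjusted p under 0.05). The 105 called were 55.9% of the members, beside 51.0% of all genes. By direction 48.9% rose, beside 25.1% of all genes, and 6.91% fell, beside 25.9%. The median log2 change was 0.22 for members and -0.00 for all genes. Here the rest of chromosome 19 moved as well, with 373 of 919 genes higher, 119 lower and a median of 0.13. ZNF genes on other chromosomes also leaned upward, with 74 of 240 higher, 40 lower and a median of 0.05. Those are 30.8% higher and 16.7% lower. Both comparisons use the same 3 DMSO libraries, so their likeness is not independent evidence.

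**Figure D1:**
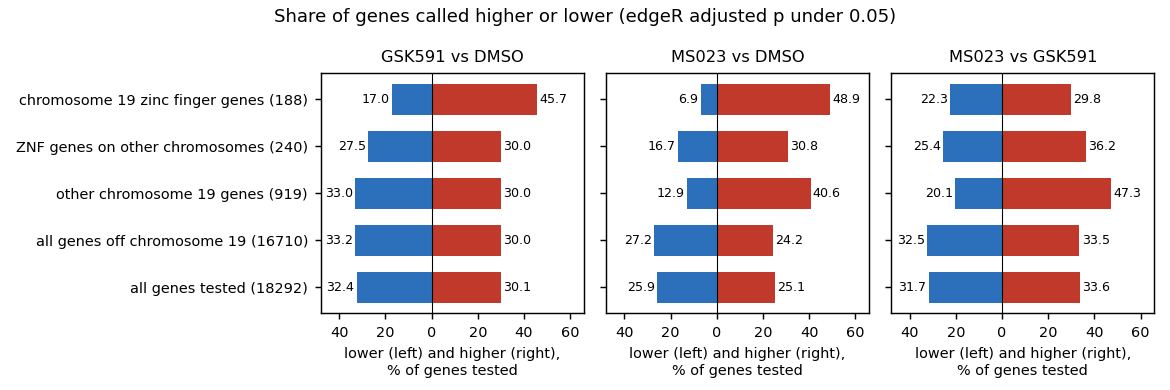
Share of tested genes called higher (right, red) and lower (left, blue) in each comparison, in percent, for the chromosome 19 zinc finger genes and 4 other sets, with the number tested in brackets. Members rose in 45.7% with GSK591 and 48.9% with MS023, beside 30.1% and 25.1% of all genes.

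Compared directly, MS023 against GSK591 gave 56 members higher and 42 lower (edgeR, adjusted p under 0.05). The 98 called, 52.1%, lay beside 65.4% of all genes. Of the members 29.8% were higher, beside 33.6% of all genes, and 22.3% were lower, beside 31.7%. With libraries scaled by total counts the split was 46 higher and 46 lower, and with a filter of 1 CPM in 3 libraries it was 43 higher and 49 lower. ZNF585A was called in opposite directions, at -0.22 ± 0.08 in counts (edgeR adjusted p = 0.018) and 0.42 in FPKM (limma adjusted p = 0.047). An F-test among the 3 groups called 148 members, 78.7%, beside 78.1% of all genes.

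Among members at 1 CPM or more whose groups did not overlap, ZNF814 had the largest increase with GSK591. It was at 14.1, 16.3 and 15.7 CPM in GSK591 libraries, against 4.97, 5.48 and 5.27 CPM in DMSO libraries, a log2 change of 1.55 ± 0.08 (SE, edgeR adjusted p = 2.5e-10). With MS023 it was at 8.37, 8.85 and 9.21 CPM, above every DMSO library and below every GSK591 library. ZNF814 (hg19 chr19:58360099-58400442) overlaps ZNF587 and shares 18.1% of its 100-base stretches with other genes, and the strand setting of the counting is not given, so reads between the 2 may be mixed. In FPKM it was also higher with GSK591, by 1.03 on the log2(FPKM + 1) scale.

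ZNF91, whose protein represses SVA elements in human cells, was next. Its level was 1.43, 2.02 and 1.55 CPM in GSK591 libraries, against 0.594, 0.629 and 0.627 CPM in DMSO libraries, a log2 change of 1.43 ± 0.20 (edgeR adjusted p = 2.3e-05). MS023 libraries, at 0.937, 1.14 and 1.22 CPM, lay between the 2 without overlap. The other large increases with GSK591 ran from 0.92 (ZNF671) to 1.14 (ZNF772) on the log2 scale and comprised ZNF418, ZNF506, ZNF177, ZNF813, ZNF571 and ZNF548 besides. For ZNF177, 94.6% of 100-base stretches occur elsewhere in annotated genes, so its counts are uncertain. ZNF813 rose by 0.97 in counts but by 0.02 in FPKM (limma adjusted p = 0.89).

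**Figure D2:**
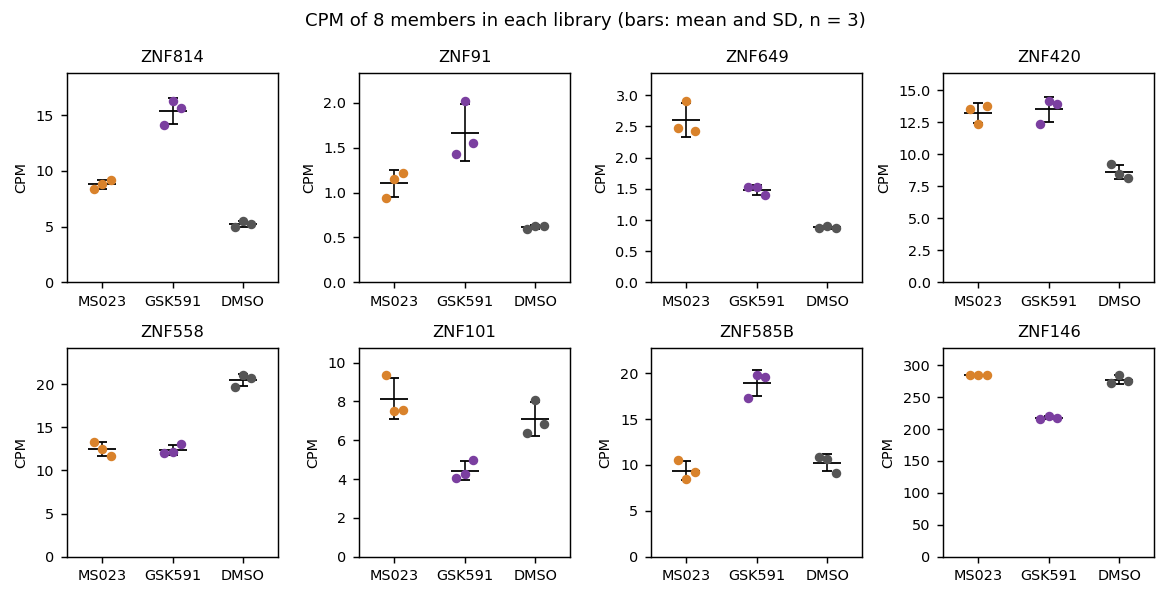
CPM of 8 members in each library, for MS023, GSK591 and DMSO from left to right, with a point per library and bars for the mean and SD (n = 3). ZNF814 and ZNF91 are highest in GSK591 cells, ZNF649 is highest in MS023 cells, and ZNF558 is lower in both treated groups than in DMSO cells.

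With MS023 the largest increase under the rule was in ZNF649, a KRAB zinc finger repressor. It was at 2.48, 2.91 and 2.42 CPM in MS023 libraries, against 0.875, 0.910 and 0.864 CPM in DMSO libraries, a log2 change of 1.55 ± 0.15 (edgeR adjusted p = 9.3e-07). GSK591 libraries, at 1.52, 1.53 and 1.40 CPM, lay between them. ZNF547, ZNF28, ZNF814, ZNF571, ZNF468, ZNF542, ZNF772, ZNF841 and ZNF420 followed, with log2 changes from 0.92 in ZNF547 to 0.62 in ZNF420. ZNF841 was not called in FPKM (limma adjusted p = 0.17).

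ZNF420, also called Apak and known as a repressor of p53 activity, was higher with both inhibitors. It was at 13.5, 12.4 and 13.8 CPM in MS023 libraries and at 12.4, 14.2 and 13.9 CPM in GSK591 libraries, against 9.25, 8.45 and 8.17 CPM in DMSO libraries. The log2 change was 0.62 ± 0.07 with MS023 and 0.65 ± 0.07 with GSK591 (edgeR adjusted p = 6.4e-06 and 2.2e-06). ZNF382, described as a tumour suppressor, was low everywhere, with 98 reads in the MS023 libraries together, 45 in GSK591 and 20 in DMSO. Its log2 change was 2.18 ± 0.38 with MS023 and 1.20 ± 0.43 with GSK591 (edgeR adjusted p = 0.00021 and 0.025), and the GSK591 call was lost without GSK591 replicate 2 (adjusted p = 0.0809), GSK591 replicate 3 (0.0734), DMSO replicate 1 (0.0691) or DMSO replicate 3 (0.115). ZNF528 had the highest point with GSK591, a log2 change of 2.13, from 61 reads in GSK591 libraries against 14 in DMSO. It lies under the 1 CPM limit and is named after its values were seen, and in MS023 cells its 35 reads went with a lower FPKM than in DMSO.

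Fewer members fell. ZNF558, which in human neural progenitors represses SPATA18, was the clearest. It was at 13.2, 12.5 and 11.7 CPM in MS023 libraries and at 11.99, 12.2 and 13.1 CPM in GSK591 libraries, against 19.7, 21.1 and 20.7 CPM in DMSO libraries. The log2 change was -0.72 ± 0.06 with each inhibitor (edgeR adjusted p = 2.2e-07 with MS023 and 1.1e-07 with GSK591). Between the inhibitors it differed by 0.01 ± 0.06 on the log2 scale.

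ZNF833P had the largest decrease of any tested member with GSK591, at 0.559, 0.588 and 0.480 CPM in GSK591 libraries, against 1.44, 1.37 and 1.19 CPM in DMSO libraries, a log2 change of -1.29 ± 0.20 (edgeR adjusted p = 4.8e-05). Its mean over these 6 libraries was under 1 CPM. GENCODE v29 types ZNF833P as a lincRNA, and its counts are uncertain for reasons given below. Above that limit ZNF846 had the largest decrease, -0.92 ± 0.23 (edgeR adjusted p = 0.0027). The others were ZNF799, ZNF101, ZNF77, ZNF114, ZNF575, ZNF784, ZNF443 and ZNF324B besides ZNF558, with changes from -0.70 to -0.45. ZNF114 was not called in FPKM (limma adjusted p = 0.0978). With MS023 the decreases after ZNF558 were smaller, from -0.69 in ZNF599 to -0.13 in ZNF845, and comprised ZNF546, ZNF446, ZNF266, ZNF160, ZNF607, ZNF581 and ZNF507 besides. The ZNF845 call was lost without MS023 replicate 2, MS023 replicate 3 or DMSO replicate 2 (adjusted p = 0.0996, 0.0593 and 0.0999).

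Several members went apart between the inhibitors. ZNF585B was at 10.5, 8.48 and 9.19 CPM in MS023 libraries, against 17.3, 19.8 and 19.6 CPM in GSK591 libraries, a log2 change of -1.005 ± 0.09 (edgeR adjusted p = 1e-07). Its DMSO libraries, at 10.9, 10.6 and 9.16 CPM, overlapped those of MS023. ZNF101 was at 9.37, 7.49 and 7.57 CPM with MS023, against 4.07, 4.28 and 4.97 CPM with GSK591, a log2 change of 0.87 ± 0.12 (edgeR adjusted p = 1.1e-05). ZNF833P had the largest positive change between inhibitors, 1.64 ± 0.19, with a mean of 1.69 CPM in MS023 cells against 0.542 CPM in GSK591 cells. It overlaps HNRNPA1P10, and its FPKM was only 0.0402 in MS023 cells and 0.00510 in GSK591 cells, so its counts are uncertain. ZNF146, the highest member, stood at 285 CPM in each MS023 library, against 215, 220 and 217 CPM in GSK591 libraries, a log2 change of 0.39 ± 0.03 (edgeR adjusted p = 1.5e-07).

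Other members with a described role were these. ZNF274, which binds the 3′ ends of zinc finger genes and recruits SETDB1, rose with GSK591 by 0.27 ± 0.05 and was at -0.02 ± 0.05 with MS023 (edgeR adjusted p = 0.00033 and 0.82). ZNF350 (ZBRK1), a partner of BRCA1, rose with GSK591 by 0.57 ± 0.07 and was at -0.01 ± 0.07 with MS023 (edgeR adjusted p = 7.8e-06 and 0.93). The difference between inhibitors was itself called for both genes, at -0.29 ± 0.05 and -0.58 ± 0.07. ZNF331, an imprinted gene, rose with both, by 0.43 ± 0.05 with MS023 and 0.33 ± 0.05 with GSK591. ZNF417 and ZNF587, a pair known to repress endogenous retroviruses, rose by 0.31 and 0.27 with MS023 and by 0.21 and 0.18 with GSK591 in counts, but no call held in FPKM. ZNF808, which acts on MER11 elements, rose by 0.94 ± 0.27 with MS023 and 1.14 ± 0.27 with GSK591 in counts. Neither ZNF808 call held in FPKM without a filter (limma adjusted p = 0.291 and 0.107). ZNF175 (OTK18) was at -0.10 ± 0.07 and -0.02 ± 0.07 and was not called.

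Members were placed in 16 position groups, a gap of over 1 Mb (hg19) starting a new one, and 8 groups held 5 or more tested members. Their counts stand beside 30.1% of all genes higher and 32.4% lower with GSK591, 25.1% and 25.9% with MS023, and 33.6% and 31.7% between inhibitors. The group at 52.1 to 54.1 Mb, ZNF175 to ZNF331, had 22 of 30 tested members higher and 3 lower with GSK591 and a median log2 change of 0.54. The group at 36.7 to 38.3 Mb had 14 of 23 higher and 2 lower, with a median of 0.48. The group at 11.6 to 12.8 Mb went the other way with GSK591, with 2 of 14 higher, 7 lower and a median of -0.20. With MS023 these 3 groups had 18, 13 and 4 higher, 3, 1 and 0 lower, and medians of 0.44, 0.26 and 0.18. The direct comparison of MS023 with GSK591 in the 11.6 to 12.8 Mb group gave 7 higher, 1 lower and a median of 0.48. The largest group, 53 tested members at 56.0 to 59.0 Mb, had 33 higher and 2 lower with MS023, and 29 higher and 5 lower with GSK591.

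**Figure D3:**
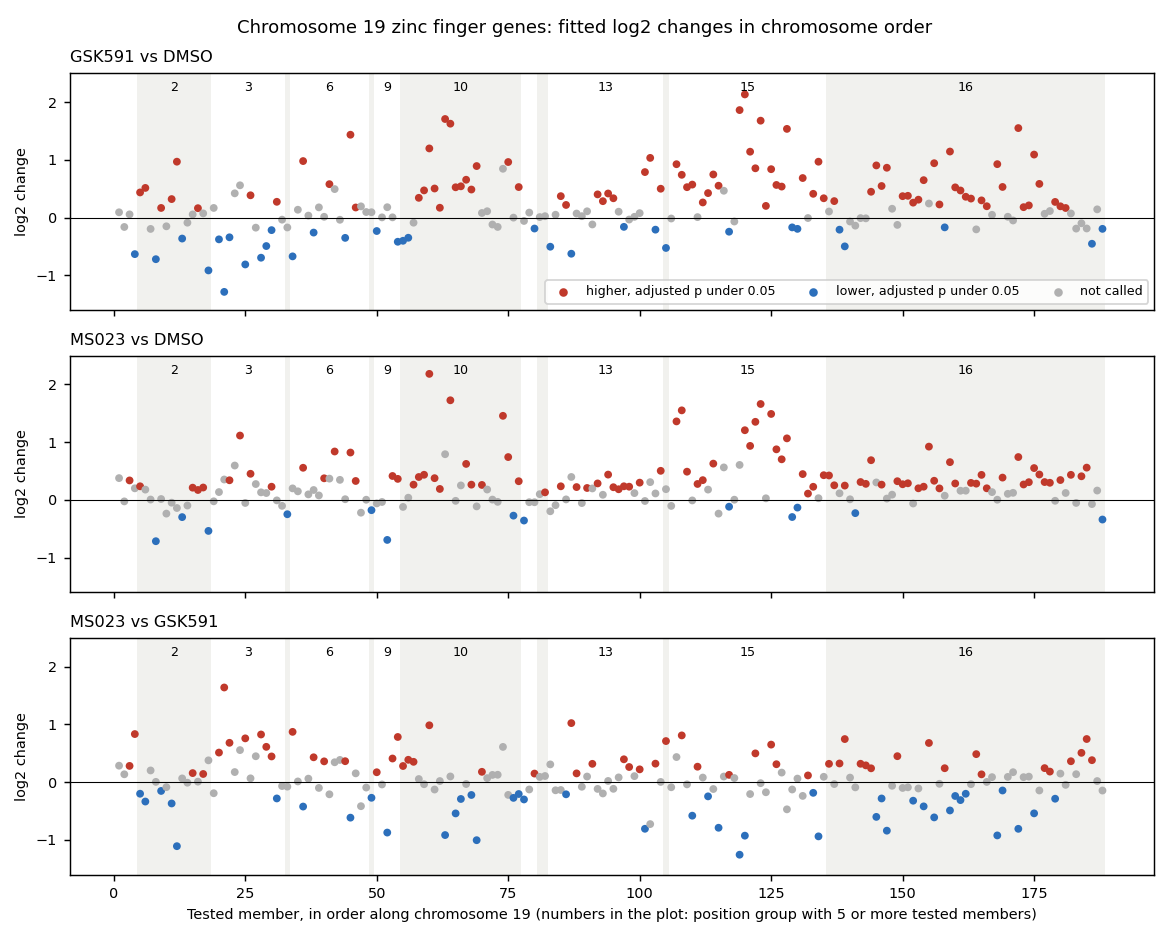
Fitted log2 change of each of the 188 tested members in order along chromosome 19, in 3 panels by comparison, coloured by call, with shading and numbers for the position groups. Increases with GSK591 gather in groups 10, 15 and 16, and decreases in group 3.

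Tested genes of other names were fewer than tested members in the intervals described above. In the 52.1 to 54.1 Mb interval 3 of 7 tested neighbours were higher and 0 lower with GSK591. In the 36.7 to 38.3 Mb interval it was also 3 of 7 and 0. In the 56.0 to 59.0 Mb interval 11 of 22 were higher and 3 lower. In the 11.6 to 12.8 Mb interval 1 of 4 was higher and 2 were lower, with a median of -0.19. Neighbours outnumbered the 14 tested members at 7.1 to 9.9 Mb, where with GSK591 9 of 34 neighbours were higher and 14 lower. At 44 to 45.6 Mb, beside 22 tested members, 10 of 22 neighbours were higher and 4 lower with GSK591. No test of a difference between members and neighbours was made.

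The most abundant member by CPM was taken in each of the 8 position groups with 5 or more tested members. ZNF146, ZNF331 and ZNF587 among them are described above, and ZNF146 fell by 0.35 ± 0.03 with GSK591 (edgeR adjusted p = 5.8e-07). ZNF302 fell by 0.23 ± 0.04 with GSK591 and ZNF562 rose by 0.21 ± 0.05 with MS023 (edgeR adjusted p = 8.4e-05 and 0.0025), the ZNF562 call being absent in FPKM (limma adjusted p = 0.158). ZNF791 and ZNF254 were not called by edgeR in any comparison, but limma on FPKM called ZNF791 with MS023 against DMSO (adjusted p = 0.0305) and ZNF254 with MS023 against GSK591 (adjusted p = 0.0258). ZNF226 was called with MS023 at 0.18 ± 0.07 (edgeR adjusted p = 0.045), and this call was lost without MS023 replicate 1 (0.165) and without MS023 replicate 2 (0.112), among other settings.

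**Figure D4:**
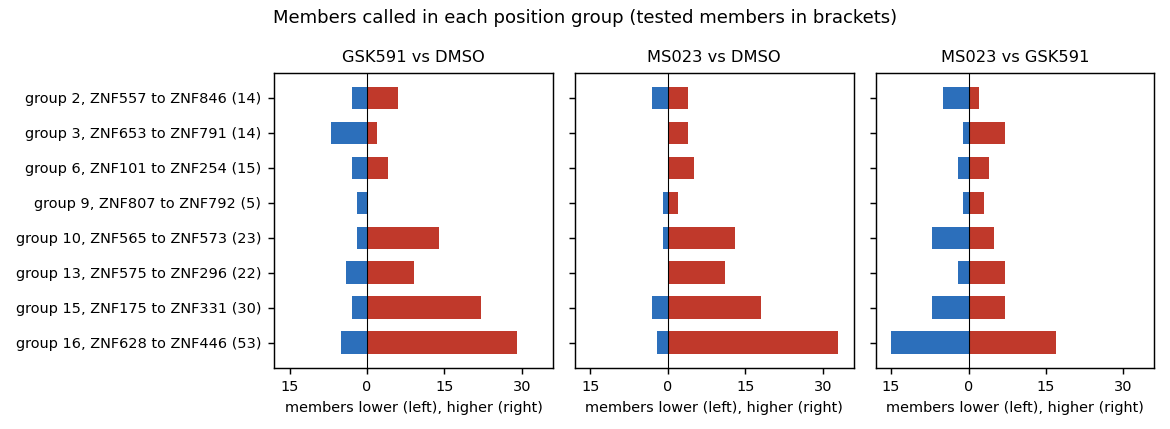
Number of members called higher (right, red) and lower (left, blue) in each position group with 5 or more tested members, by comparison. Group 15 has 22 higher and 3 lower with GSK591, and group 3 has 2 higher and 7 lower.

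The level of a gene went with the size of its change. Among the 63 members with the lowest mean CPM, up to 5.40 CPM, the median log2 change was 0.37 with MS023 and 0.52 with GSK591. Among the 63 with the highest it was 0.18 and 0.08. Over the 188 members the log2 change correlated with log2 mean CPM at Pearson r = -0.51 with MS023 and -0.40 with GSK591, as a description across genes of the same libraries. By rank the correlation was weaker, at Spearman rho = -0.32 and -0.29. All genes of like level showed part of this with GSK591: 35.0% of 7194 genes in the lowest range rose and 9.70% fell, beside 50.8% and 12.7% of members. In the highest range 24.9% of 9300 genes rose and 50.2% fell, beside 41.3% and 17.5% of members. With MS023, 19.8% of all genes in the lowest range rose, beside 44.4% of members. In the highest range 27.4% of all genes and 54.0% of members rose with MS023, so the share called higher did not fall with level.

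**Figure D5:**
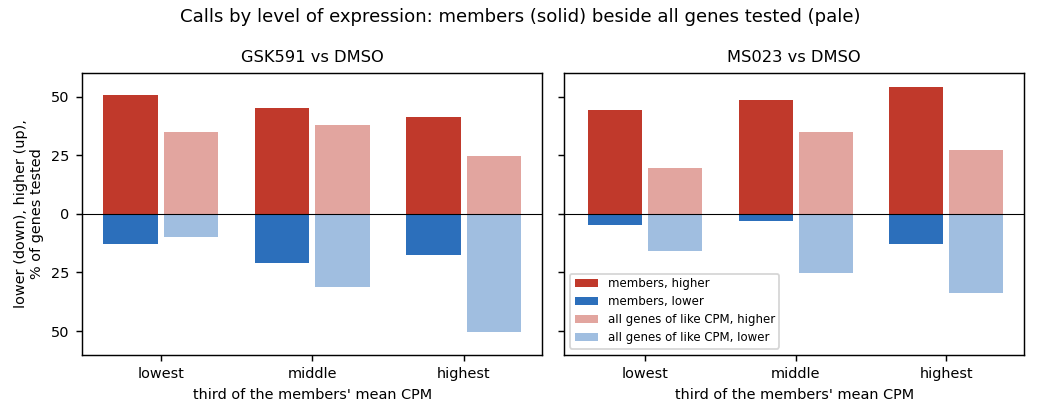
Percent of genes called higher (up, red) and lower (down, blue) against DMSO in 3 ranges of the members' mean CPM, for members (solid) and all genes tested of like CPM (pale). In the highest range 41.3% of members and 24.9% of all genes rose with GSK591.

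Members that matched the KRAB letters rose in 65 of 130 with GSK591 and fell in 21. Those that did not match rose in 17 of 53 and fell in 10. Of all genes 30.1% rose and 32.4% fell. With MS023, 65 of the 130 rose and 8 fell, and 26 of the 53 rose and 5 fell, beside 25.1% and 25.9% of all genes. The letters were unevenly spread by position. In the group at 44 to 45.6 Mb they matched 2 of 24 members with a coding sequence, and 22 members there were tested. The KRAB split is therefore not separate from position, and the part of each was not tested. Gene span and number of fingers correlated weakly with the change, at r of 0.14 and 0.17 with GSK591. Of 155 members sharing up to 10% of their 100-base stretches with other genes, 41.9% rose with GSK591 and 16.1% fell. Of 28 members sharing more, 60.7% rose and 21.4% fell. With MS023, 50.3% and 46.4% of these 2 sets rose. The ETS core stood in 57.5% of 73 promoters of members that rose with GSK591, in 32.1% of 28 that fell and in 40.6% of 64 not called. With MS023 it stood in 43.9% of 82 that rose and 53.8% of 13 that fell. These shares were not tested.

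RNA of genes for the proteins that KRAB zinc finger proteins work through was read from the same libraries. The list held 42 co-repressor genes, of which 41 were tested. With GSK591, 6 rose and 23 fell, with a median log2 change of -0.11. These are 14.6% and 56.1% of the list, beside 30.1% and 32.4% of all genes, and 50.2% of all genes in the highest level range above fell. With MS023, 15 rose and 8 fell, 36.6% and 19.5% beside 25.1% and 25.9% of all genes, with a median of -0.01. TRIM28 averaged 550 ± 28.9 CPM in MS023 cells, 512 ± 8.31 CPM in GSK591 cells and 539 ± 27.3 CPM in DMSO cells (SD, n = 3) and was not called in any comparison (edgeR). SETDB1 was not called either, at 0.10 ± 0.05 with GSK591 and -0.01 ± 0.05 with MS023 (edgeR adjusted p = 0.12 and 0.91). SUV39H2, a histone H3 lysine 9 methyltransferase, fell by 0.86 ± 0.04 on the log2 scale with GSK591, and the HP1 genes CBX1, CBX3 and CBX5 fell by 0.56, 0.53 and 0.45. HDAC1, a histone deacetylase of the NuRD complex, averaged 190.9 CPM in MS023 cells, 92.4 CPM in GSK591 cells and 125 CPM in DMSO cells. Of 8 endogenous retrovirus genes, possible targets of the family, 5 were tested. None was called with GSK591 (edgeR), and with MS023 ERVMER34-1 was at 0.57 ± 0.17 and ERV3-1 at -0.40 ± 0.11, both called.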

How the data were processed

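Per the labels, total RNA of A549 cells was depleted of ribosomal RNA before paired-end library preparation. The authors deposited a table of read counts per gene and, per library, FPKM (fragments scaled to gene length and depth) in the layout of Cufflinks tables. The submitters' processing notes name cutadapt, STAR, featureCounts and DESeq2 with hg19, and no source used here gives versions, annotation or strand setting. Positions are those of the FPKM tables, with starts made 1-based, and ZNF121 and ZNF665, each listed at 2 loci, were placed at the longer one. Members and lists were chosen with earlier results of these data known.

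Counts were fitted in R 4.3.3 with edgeR 4.0.16 (filterByExpr, minimum count 10 and total 15, TMM, quasi-likelihood test, group as the only term, all 9 libraries), with Benjamini-Hochberg adjustment over 18292 genes and a threshold of 0.05. P-values are two-sided. FPKM were tested with limma 3.58.1 on log2(FPKM + 1), for genes of FPKM 1 in 3 libraries, a scale that understates changes of low genes. Alternatives were DESeq2 1.42.0, other scalings and filters, a replicate block, each library left out, and a threshold of 0.01. Reference protein sequences were not used here. Fingers and KRAB letters were counted in proteins translated from GENCODE v29 coding sequence. Reads are not independent molecules, and errors cover counting and the spread between libraries only. The procedure was tested on simulated data in which a small part of the genes changed, none of them with few reads. That test does not reach low members or changes as widespread as those here.

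Named genes are the 10 largest changes each way against DMSO and 6 each way between inhibitors, among called members whose groups did not overlap and whose 6 libraries in the comparison averaged 1 CPM or more, then the highest member of each position group and 15 members with a known role. One gene that the name rule would take is not reported here. Replicate numbers did not pair the libraries.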

Additional observations from a re-analysis of the deposited data

Results flagged for a closer look

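Of the members, 16 identifiers had FPKM but no row of counts. Those named next had a treated group at a mean of 1 FPKM or more and wholly above the DMSO libraries, a signal outside the counts that was not tested. In the other direction, ZNF285 averaged 1.498 FPKM in GSK591 cells and 1.68 FPKM in DMSO cells, without overlap. ZNF224, a KRAB zinc finger repressor, averaged 9.43 ± 0.468 FPKM in MS023 cells and 12.4 ± 1.44 FPKM in GSK591 cells, and 7.02 ± 0.818 FPKM in DMSO cells (SD, n = 3). ZNF587B averaged 10.2 FPKM in MS023 cells and 10.9 FPKM in GSK591 cells, and 8.74 FPKM in DMSO cells. ZNF850 averaged 1.43 FPKM in GSK591 cells and 0.843 FPKM in DMSO cells. ZNF234 averaged 3.66 FPKM in MS023 cells and 2.53 FPKM in DMSO cells, and ZNF865 averaged 6.93 FPKM in MS023 cells and 5.26 FPKM in DMSO cells.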

How the results depend on the processing

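None of the 78 named calls and none of the medians changed sign under the alternatives run, but the split of calls between inhibitors did, and ZNF585A, not among the named calls, was called in opposite directions in counts and FPKM. Of the 78 calls 48 held under every alternative in which the gene was tested, apart from a threshold of 0.01, and 30 were lost under at least 1. Not every low gene was tested in all 20 alternatives. ZNF506, absent from the filtered FPKM, had 18, as had ZNF91 and ZNF649. The largest dependence was on the table used. In FPKM the members called were 67, 69 (pseudocount 0.1) and 58 (no filter) for GSK591 against DMSO. They were 56, 55 and 38 for MS023 against DMSO, and 59 without a filter for MS023 against GSK591. The F-test called 95, 95 and 83. With the filter 158 members and 13590 genes were tested in FPKM, fewer than in counts. Without it 247 members and 31613 genes were tested, more than in counts. The median log2 change in FPKM was 0.049, 0.0685 and 0.0242 with GSK591, 0.128, 0.178 and 0.0742 with MS023, and 0.0838, 0.0956 and 0.0141 between inhibitors. With log2(FPKM + 1) all genes tested had medians of -0.0956, -0.00688 and 0.0933 in these comparisons. In counts those of all genes were 0.00585, -0.00298 and 0.00171. With GSK591 the medians of members and of all genes were both lower in FPKM than in counts, with different genes tested. The members' median with GSK591 stayed above that of all genes. The remaining medians are given where they moved by more than 1 SD of the tested group's replicates, a narrow limit. With total counts the medians were 0.226, 0.255 and 0.0406 in the same order, and those of all genes 0.0664, 0.0362 and -0.0195. Without a filter they were 0.244 with MS023 and 0.0438 between inhibitors, and with a filter of 1 CPM they were 0.206 and 0.0196, where 43 members were higher and 49 lower between inhibitors. Between inhibitors the median was 0.0512 with RLE size factors, 0.0517 with DESeq2 and 0.0481 with only the 6 libraries compared. Leaving out each library in turn gave medians of 0.203 to 0.235 with MS023 and 0.0133 to 0.0628 between inhibitors, and counts of 102 to 117, 87 to 105, 78 to 103 and 141 to 146. Leaving out DMSO 1 and GSK591 3 together, chosen after seeing the data, gave medians of 0.203 with MS023 and 0.0401 between inhibitors, and 106, 92, 84 and 136 members called. The cause of these shifts was not tested. With a replicate block 115, 98 and 93 members were called and 144 by the F-test. Same-numbered libraries correlated at -0.43 to 0.26, so the numbers do not pair the libraries.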
